A study of Mus musculus with 16 samples.

Results

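The dependence of the heart's lactation response on the natriuretic peptide receptor gene Npr1 was measured as a genotype by lactation interaction in mouse ventricular tissue. All 16 of the 16 arrays of the study entered this contrast, 4 in each of 4 groups assigned by the sample titles. The groups were nulliparous Npr1+/+ (wild-type), lactating Npr1+/+, nulliparous Npr1-/- (knockout) and lactating Npr1-/- mice. All were female, the lactating mice were sampled at 2 weeks of lactation, and the labels describe 4 independent mice per group. The labels give neither age, strain nor litter, and they name the receptor loss as a knockout without a promoter or Cre, so it is not limited to a cell type by the labels. Total RNA from the ventricles (200 ng) was labelled with Cy3 and hybridised to one-colour Agilent arrays, 1 mouse per array.

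The interaction is the lactation response of the knockout minus that of the wild-type, each response being the log2 difference between lactating and nulliparous group means. A negative value means that a gene rose less, or fell more, with lactation in the knockout. Levels are the log2 of the processed signal after subtracting the array's own 75th percentile of it on that scale, so a level of 0 is a signal at that percentile, and levels of different genes are not comparable because each gene has its own probe. Errors are standard errors (SE) from limma with n = 4 per group, and a gene is described as called when limma's Benjamini-Hochberg adjusted p was under 0.05 over all 14060 genes tested.

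Npr1 encodes the membrane guanylyl cyclase that binds atrial and B-type natriuretic peptides, which stretched heart muscle secretes, and raises cyclic GMP inside the cell. In the heart this pathway is known for restraining muscle growth and fibrosis, and in the body for promoting salt and water excretion, relaxing vessels and stimulating the breakdown of stored fat. Pregnancy and lactation enlarge the heart through a greater blood volume and output, so the peptides and their receptor act at a time when the load on the heart is high.

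The Npr1 probe could not check the genotypes. It read -4.23, -3.62, -4.11 and -4.47 in nulliparous wild-type mice and -4.68, -3.71, -3.53 and -3.93 in lactating wild-type mice. The nulliparous knockout arrays read -3.71, -3.93, -4.15 and -3.87, and the lactating knockout arrays -4.26, -3.84, -3.63 and -4.04. The probe was well above background on 9 of 16 arrays, wild-type and knockout levels overlapped, and where the probe lies relative to the deleted part of the gene is not given in the sources used here. The genotypes below rest on the labels.

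Array brightness, taken as the 75th percentile, ranged from 165 to 221 for 7 nulliparous arrays and from 278 to 347 for lactating ones, and 48.5% to 58.6% of probes per array were well above background. Nulliparous knockout replicate 4 stood apart. Its 75th percentile was 284, and on the first principal component (53.7% of the variance) it lay at 14.53, while the other nulliparous arrays lay between -46.90 and -39.33 and the lactating arrays between 27.64 and 41.93. Over 1470 genes that changed by more than 1 log2 unit in the wild-type, this array showed a median share of 0.702 of the wild-type shift. It was kept, and results that rest on it are given with and without it. The arrays were on 2 slides, replicates 1 and 2 of every group on slide 1 and replicates 3 and 4 on slide 2, and each group kept its array position, so position and group cannot be told apart.

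Lactation moved much of the ventricular transcriptome in both genotypes, and few of these responses differed between them at this sample size. Limma called 7071 of 14060 genes (50.3%) for lactation in the wild-type and 6204 (44.1%) in the knockout. Both genotypes shared 5032 of these, 5021 of them in the same direction and 11 in opposite directions. For the interaction itself 13 genes were called (0.0925%), 3 with a positive value (0.0213%) and 10 with a negative value (0.0711%). At an unadjusted p under 0.05 there were 896 genes (6.37%), 281 positive and 615 negative. The typical 95% confidence interval of an interaction was 0.424 log2 units to either side, and 298 genes (2.12%) had an interaction larger than 1 log2 unit. Across genes, which are not independent replicates, the responses of the 2 genotypes correlated at r = 0.833.

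**Figure D1:**
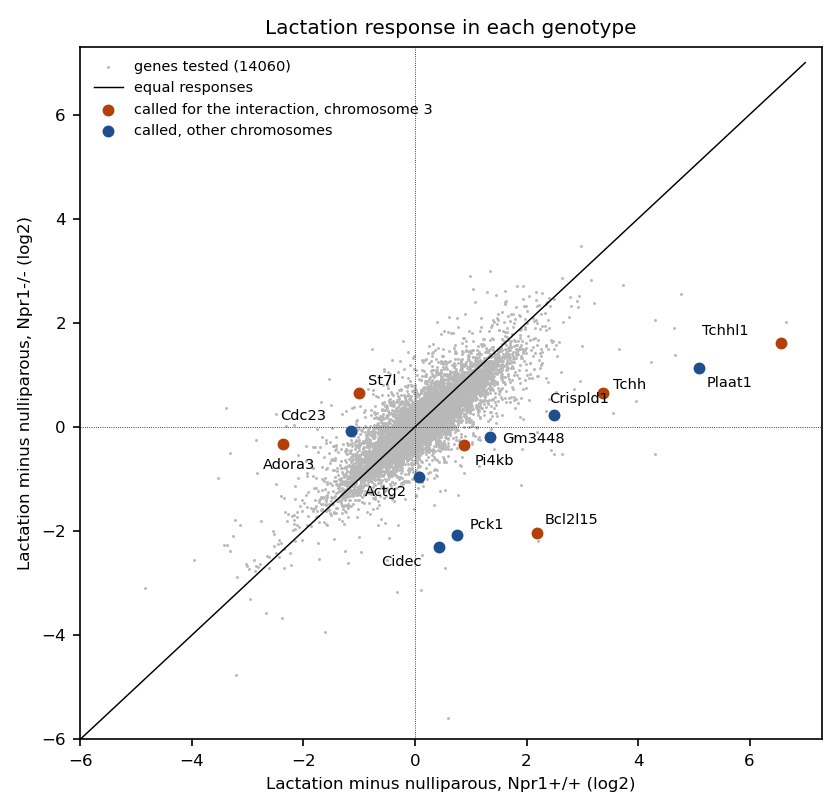
Lactation response (log2 difference between lactating and nulliparous means, n = 4 mice per group) of each of 14060 genes in Npr1+/+ mice (x axis) and Npr1-/- mice (y axis), with the line of equal responses. The 13 genes called for the interaction are named, 6 of them on chromosome 3, and 10 lie below the line.

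Which genotype had the larger lactation response turned on that 1 array. Among the 8732 genes (62.1%) called for the lactation effect averaged over genotypes, the median response in the direction of that effect was 0.53 in the wild-type and 0.47 in the knockout, and 5534 (63.4%) responded less in the knockout. Without nulliparous knockout replicate 4 the medians were 0.51 and 0.56 over 9215 such genes, and 3893 (42.2%) responded less in the knockout. The 13 calls for single genes held without that array, while the number of calls rose. Leaving that array out gave 20 called genes, 5 positive and 15 negative, which included all 13.

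The 13 called genes fell into 4 kinds of response. For 5 (Tchh, Crispld1, Gm3448, Adora3 and Cdc23) limma called lactation in the wild-type and not in the knockout, and for 3 (Cidec, Pck1 and Actg2) in the knockout and not in the wild-type. For 3 (Pi4kb, St7l and Bcl2l15) lactation was called in opposite directions, and for Tchhl1 and Plaat1 in the same direction at different sizes.

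Trichohyalin-like 1, Tchhl1, had the smallest p. It encodes an S100 fused-type protein related to trichohyalin, the structural protein of the hair follicle's inner root sheath. Its levels were -6.12, -5.93, -5.54 and -5.69 in nulliparous wild-type mice, none well above background, and 1.12, 0.39, 1.06 and 0.40 in lactating wild-type mice. Nulliparous knockout mice already read -1.23, -0.63, -2.07 and -1.30, and lactating knockout mice 0.69, 0.71, -0.12 and -0.09. The nulliparous wild-type arrays were alone at background, and the lactating groups overlapped. The rise with lactation was at least 25.1-fold in the wild-type and 3.04-fold in the knockout, and the interaction was -4.96 ± 0.41 (limma adjusted p = 8.33e-05), an at least 8.23-fold difference between the responses. Normexp background correction, which adds an offset and so shrinks dim values, gave -1.55 (limma adjusted p = 0.0182), below that bound. A bound marked "at least" gives the undetected probe, per array, the dimmest detected signal found there, or the probe's own if brighter.

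Trichohyalin itself, Tchh, is the gene next to Tchhl1 in gene order on chromosome 3 and showed the same arrangement. Nulliparous wild-type mice read -4.20, -4.85, -5.53 and -4.44, all at background, and lactating wild-type mice -1.19, -1.31, -1.56 and -1.47. In the knockout the nulliparous levels were -1.75, -1.66, -2.54 and -2.52 and the lactating levels -1.47, -1.15, -1.67 and -1.58. Only the nulliparous wild-type arrays did not overlap with any other group. The wild-type rise was at least 5.68-fold, the knockout difference was 0.65 ± 0.26 (limma adjusted p = 0.0605), and the interaction was -2.72 ± 0.37 (limma adjusted p = 0.00932), at least 3.63-fold on the processed signal. With normexp it was -0.71 and not called (limma adjusted p = 0.298).

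The promoters of 3 called genes are shown as background, the pair of neighbours that were at background only in nulliparous wild-type mice and the called gene Pck1, known for a well-studied hormone-regulated promoter. Each is the 250 bases before the start in RefSeq's GRCm38.p6 table, 5′ to 3′, with matches to any of 4 short motifs in capitals on either strand: AGGTCA (nuclear receptor half-site), TGTTCT (corticosteroid receptor half-site), TGACGT (cyclic AMP response core) and CACGTG (E-box). AGGTCA reads TGACCT on the other strand and so shares the letters TGAC with TGACGT.
Tchh (chr3:93442080-93442329, strand +): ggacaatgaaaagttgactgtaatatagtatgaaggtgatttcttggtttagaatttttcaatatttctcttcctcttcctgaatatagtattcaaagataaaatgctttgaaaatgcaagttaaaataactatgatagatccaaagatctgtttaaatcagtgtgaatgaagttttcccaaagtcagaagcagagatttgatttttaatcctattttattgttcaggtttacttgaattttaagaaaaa
Tchhl1 (chr3:93468504-93468753, strand +): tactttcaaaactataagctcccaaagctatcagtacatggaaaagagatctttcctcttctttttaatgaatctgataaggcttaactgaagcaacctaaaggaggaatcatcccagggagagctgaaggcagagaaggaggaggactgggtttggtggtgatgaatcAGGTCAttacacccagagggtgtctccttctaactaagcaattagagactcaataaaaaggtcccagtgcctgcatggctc
Pck1 (chr2:173152823-173153072, strand +): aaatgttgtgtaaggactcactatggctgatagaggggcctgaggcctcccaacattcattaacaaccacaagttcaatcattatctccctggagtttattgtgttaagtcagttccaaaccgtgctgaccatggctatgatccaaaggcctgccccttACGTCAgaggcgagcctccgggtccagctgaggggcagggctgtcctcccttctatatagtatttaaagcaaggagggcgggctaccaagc
Tchhl1 holds 1 AGGTCA, Pck1 holds 1 TGACGT on the reverse strand, and the Tchh window holds none of the 4. AGGTCA is held by 14% of all 32851 promoters searched, TGTTCT by 16.1%, TGACGT by 6.47% and CACGTG by 6.02%. The table matched 10 of the 13 called genes, of which 2 (Tchhl1 and Bcl2l15) hold AGGTCA, 1 (Gm3448) TGTTCT, 1 (Pck1) TGACGT and 0 CACGTG. A match is a run of letters and not a measured binding site.

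Plaat1, which encodes a phospholipase and acyltransferase acting on phospholipids, rose 33.9-fold with lactation in the wild-type and 2.19-fold in the knockout. Its wild-type levels were -2.40, -2.47, -3.34 and -2.29 before and 2.44, 2.55, 2.56 and 2.30 during lactation. Knockout levels were 0.82, 0.80, 2.14 and 2.37 in nulliparous mice and 2.71, 2.70, 2.65 and 2.60 in lactating mice. Nulliparous wild-type mice were below every other array, nulliparous knockout mice split into 2 low and 2 high arrays by slide, and lactating knockout mice were above all others. The interaction was -3.96 ± 0.45 (limma adjusted p = 0.00169). It was -3.04 on slide 1 and -4.88 on slide 2, and -2.55 with normexp (limma adjusted p = 0.00627).

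Crispld1 encodes a secreted cysteine-rich protein. It was at background on all nulliparous wild-type arrays (-5.37, -6.10, -5.26 and -5.63) and well above it on all 12 others. Lactating wild-type mice read -2.58, -3.24, -3.63 and -2.97, nulliparous knockout mice -3.08, -3.18, -2.39 and -2.44, and lactating knockout mice -2.44, -2.92, -2.35 and -2.48. Its wild-type rise was at least 1.74-fold and the interaction was -2.26 ± 0.35 (limma adjusted p = 0.0184), at least 1.49-fold on the processed signal. With normexp it was -0.29 and not called (limma adjusted p = 0.972). The predicted gene Gm3448, whose placeholder symbol lay outside the rule for named genes and which is named after its values were seen, rose 2.54-fold in the wild-type with an interaction of -1.54 ± 0.25 (limma adjusted p = 0.0309). A second Gm3448 probe gave -1.04. The Gm3448 call was lost in 10 of 16 fits without 1 array, without a filter, with the mean of its probes and with normexp (-0.79, limma adjusted p = 0.146).

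Among the genes that rose in the wild-type and fell in the knockout, Pi4kb had the narrowest error. It encodes a phosphatidylinositol 4-kinase of the Golgi. Wild-type levels went from -0.47, -0.42, -0.52 and -0.37 to 0.50, 0.42, 0.41 and 0.41 with lactation. Knockout levels were -0.26, 0.02, 0.05 and -0.46 in nulliparous mice and -0.48, -0.56, -0.49 and -0.48 in lactating mice. The lactating wild-type arrays were above every other array, 1.84-fold over nulliparous wild-type, and the lactating knockout arrays were below the nulliparous knockout arrays. The interaction was -1.22 ± 0.14 (limma adjusted p = 0.00169).

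Bcl2l15, a member of the BCL2 family of apoptosis regulators, had an interaction of -4.21 ± 0.70 (limma adjusted p = 0.0309), and of -1.70 with normexp (limma adjusted p = 0.016). Nulliparous wild-type mice read -4.39, -4.36, -2.73 and -4.42, with only the third well above background, and lactating wild-type mice -1.83, -1.91, -1.95 and -1.51. Nulliparous knockout mice read -0.99, -0.96, -1.43 and -2.16 and lactating knockout mice -2.55, -4.54, -4.25 and -2.33. The direction was opposite in the 2 genotypes without overlap within either. The size rests on 3 nulliparous wild-type arrays at background, and on lactating knockout replicate 2, which was at background too. The call was lost in 12 of 16 fits that left out 1 array, without a filter, with the mean of its probes and with a replicate or slide block, and 2 further probes of the gene, well above background on at most 1 array, gave -0.74 and -0.0029.

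The 3 genes with a positive interaction fell in the wild-type. Adora3, the adenosine A3 receptor, fell 5.15-fold there, from -1.50, -1.20, -1.56 and -1.04 to -3.64, -3.86, -3.69 and -3.56. In the knockout it read -1.14, -1.23, -1.72 and -1.75 before and -2.08, -1.20, -1.58 and -2.30 during lactation. The lactating wild-type mice were alone in the low range, and the other 3 groups overlapped. The interaction was 2.03 ± 0.31 (limma adjusted p = 0.0161). It was not called with a replicate block or with normexp (0.99, limma adjusted p = 0.149).

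St7l, a relative of the gene St7, fell 2-fold in the wild-type and rose 1.57-fold in the knockout. Wild-type levels were 1.35, 1.29, 1.56 and 1.28 before and 0.39, 0.31, 0.43 and 0.36 during lactation, and knockout levels 0.51, 0.55, 1.05 and 1.17 before and 1.34, 1.59, 1.63 and 1.32 during it. Neither genotype's groups overlapped, and the interaction was 1.65 ± 0.20 (limma adjusted p = 0.0024). Cdc23, a subunit of the anaphase-promoting complex that ends mitosis, fell 2.21-fold in the wild-type, from -1.81, -1.88, -1.93 and -1.74 to -2.95, -3.14, -2.66 and -3.18. All 8 knockout arrays lay between -2.12 and -1.75. Its interaction was 1.07 ± 0.16 (limma adjusted p = 0.0161). It was not called with trended and robust variance or with normexp (0.46, limma adjusted p = 0.449).

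Cidec and Pck1, both active in fat cells, fell with lactation in the knockout and were not called in the wild-type. Cidec encodes a protein that fuses lipid droplets. Wild-type levels were -1.47, -1.68, -1.61 and -1.47 in nulliparous and -1.26, -0.90, -1.82 and -0.51 in lactating mice, and these groups overlapped. Nulliparous knockout mice read -3.22, -3.06, -4.19 and -3.43, and lactating knockout mice -5.72, -6.06, -5.10 and -6.28, all at background. The interaction was -2.75 ± 0.42 (limma adjusted p = 0.018). With lactating knockout arrays at the dimmest detected signal of each, the knockout fall was 2.05-fold and the responses differed 2.77-fold on the processed signal. These folds are not lower bounds, because nulliparous knockout replicate 3 entered at its own undetected reading. A dimmer second probe, well above background on only 2 arrays, gave -1.35. Its lactation response was 1.19 in the wild-type and -0.15 in the knockout, so its value did not come from a knockout fall. The Cidec interaction was not called with a replicate block, without nulliparous wild-type replicate 2 or with normexp (-0.88, limma adjusted p = 0.26).

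Pck1 encodes cytosolic phosphoenolpyruvate carboxykinase, which feeds gluconeogenesis in liver and kidney and glycerol synthesis in fat. Wild-type mice read -2.56, -2.81, -2.38 and -2.91 before and -1.56, -2.40, -1.95 and -1.71 during lactation. Knockout mice read -4.60, -3.71, -4.30 and -2.86 before and -5.28, -6.17, -5.81 and -6.52 during it, the last 4 all at background. Nulliparous knockout replicates 1 and 3 were at background too, so the knockout fall rests on the 2 measured nulliparous arrays and the order among the others has no meaning. The interaction was -2.84 ± 0.47 (limma adjusted p = 0.0309). With lactating knockout arrays at the dimmest detected signal of each, the knockout fall was 1.56-fold and the responses differed 2.64-fold. These folds are not lower bounds, because nulliparous knockout replicates 1 and 3 entered at their own undetected readings. The call was lost in 10 of 16 fits without 1 array, with quantile normalization and with a replicate or slide block, and normexp background correction gave -0.95 (limma adjusted p = 0.00959).

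Actg2, the gamma actin of visceral smooth muscle, was high only in nulliparous knockout mice (-1.40, -1.37, -1.61 and -1.34). The other groups overlapped at -2.49, -2.36, -2.50 and -2.25 in nulliparous wild-type, -2.34, -2.49, -2.21 and -2.28 in lactating wild-type and -2.24, -2.69, -2.40 and -2.28 in lactating knockout mice. It fell 1.96-fold with lactation in the knockout and differed by 0.07 ± 0.11 in the wild-type, with an interaction of -1.04 ± 0.15 (limma adjusted p = 0.0137), and of -0.59 with normexp (limma adjusted p = 0.0307).

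**Figure D2:**
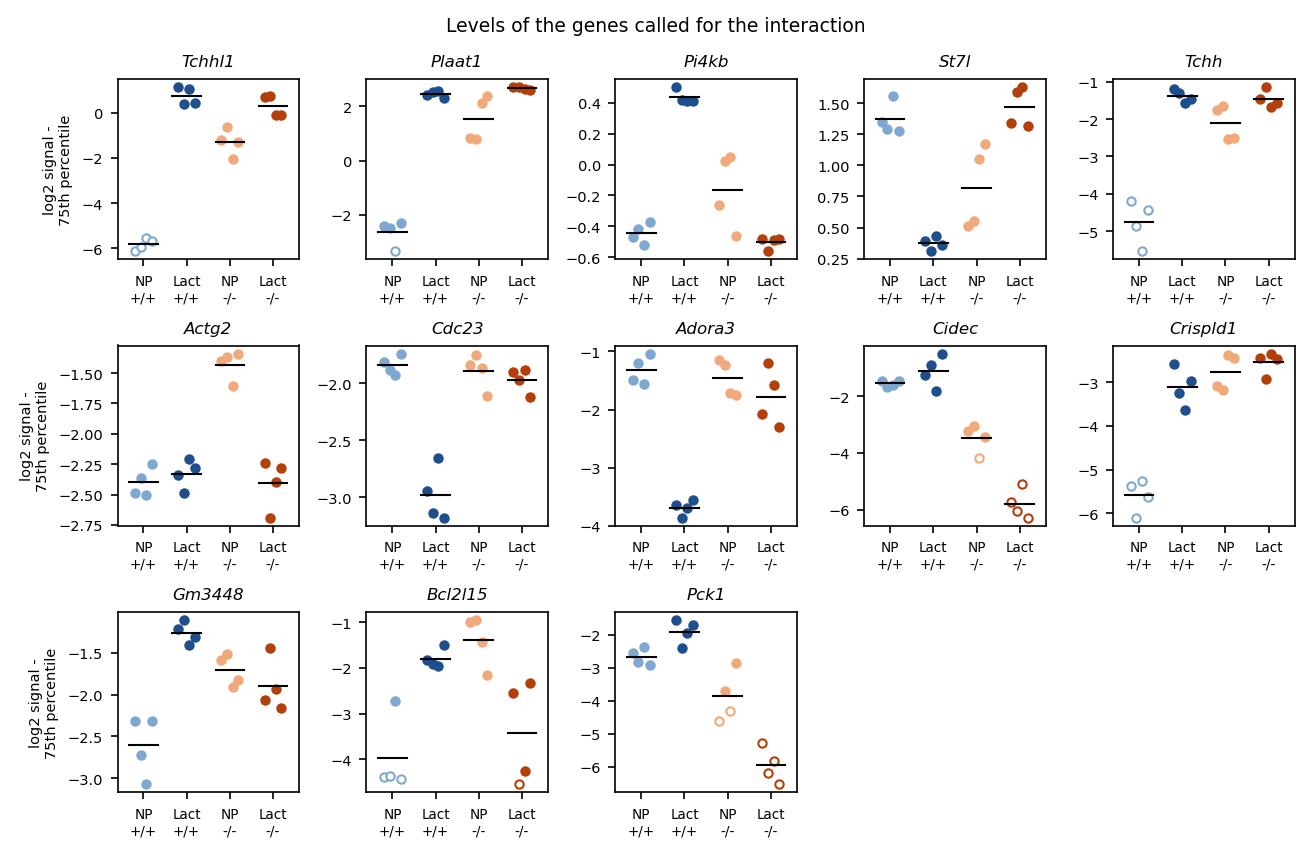
Levels (log2 signal relative to the 75th percentile of each array) of the 13 called genes on every array, by group (NP, nulliparous; Lact, lactating; +/+ and -/-, Npr1 genotype). Each point is 1 mouse in replicate order, lines are group means, and open points were not well above background. Nulliparous Npr1+/+ mice lie below all others for Tchhl1, Plaat1, Tchh, Crispld1 and Gm3448, and lactating Npr1+/+ mice for Adora3, Cdc23 and St7l.

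In most of the called genes a single group stood apart from the other 3. Nulliparous wild-type mice lay wholly below the 12 other arrays for 5 of the 13 genes (264 of 13970 genes with all 16 values, 1.89%). Lactating wild-type mice lay wholly below for 3 (75 genes, 0.537%) and wholly above for 2, Pi4kb and Gm3448 (147 genes, 1.05%). Lactating knockout mice lay wholly below for Cidec and Pck1 (181 genes, 1.30%) and wholly above for Plaat1 (163 genes, 1.17%), and nulliparous knockout mice wholly above for Actg2 (32 genes, 0.229%). A group set apart from the other 3 has a larger interaction by construction, so these counts describe the calls and are no test.

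Within nulliparous knockout mice, replicates 1 and 2 did not overlap with replicates 3 and 4 for 10 of the 13 genes, against 5130 of 13970 genes (36.7%). In the other groups this held for 1 gene in nulliparous wild-type (40.1% of all genes), 4 in lactating wild-type (30.7%) and 3 in lactating knockout mice (36.8%). The number equals the slide, and whether the mice of a number were also litter mates is not given in the sources used here. All 13 interactions had the same sign on both slides, from -5.16 to 1.94 on slide 1 and from -4.88 to 2.12 on slide 2. The 13 were called on the arrays of both slides together, so this shared sign is no test.

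Chromosome 3, which carries Npr1, held 6 of the 13 called genes (46.2%) and 670 of the 14060 genes tested (4.77%). The 6 were Tchh, Tchhl1, Pi4kb, Bcl2l15, St7l and Adora3. At an unadjusted p under 0.05 chromosome 3 held 71 of its 670 genes (10.6%), against 6.37% of all genes. Counted in protein-coding genes of the RefSeq table, all 6 lay on one side of Npr1, Tchh at position 70, Tchhl1 at 71, Pi4kb at 100, Bcl2l15 at 239, St7l at 251 and Adora3 at 260. None of the 38 genes tested within 25 genes of Npr1 on either side was called, nor any of 60 within 50 genes. Within 100 genes 3 of 119 were called, and within 300 genes 6 of 395. Over all genes tested 0.0925% were called, so the 2 smaller windows cannot show whether calls are missing next to Npr1.

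In the simple comparisons of genotypes, 4 of the 14 genes called in nulliparous mice (0.0996% of all tested) and 6 of the 28 called in lactating mice (0.199%) were on chromosome 3. DNA flanking a targeted gene can keep the strain of the targeted cells and differ from the wild-type. The labels do not give the strains, and whether flanking sequence moves with these values was not tested. Car3, Enpep, Fabp4, Gucy1a1, Ifi44 and Postn, named below without a call, are on chromosome 3 too. Of the next gene outside the threshold on this chromosome, Ap4b1, a subunit of an adaptor complex of vesicle transport, the interaction was 0.60 ± 0.11 (limma adjusted p = 0.0872), with a second probe at 0.47.

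**Figure D3:**
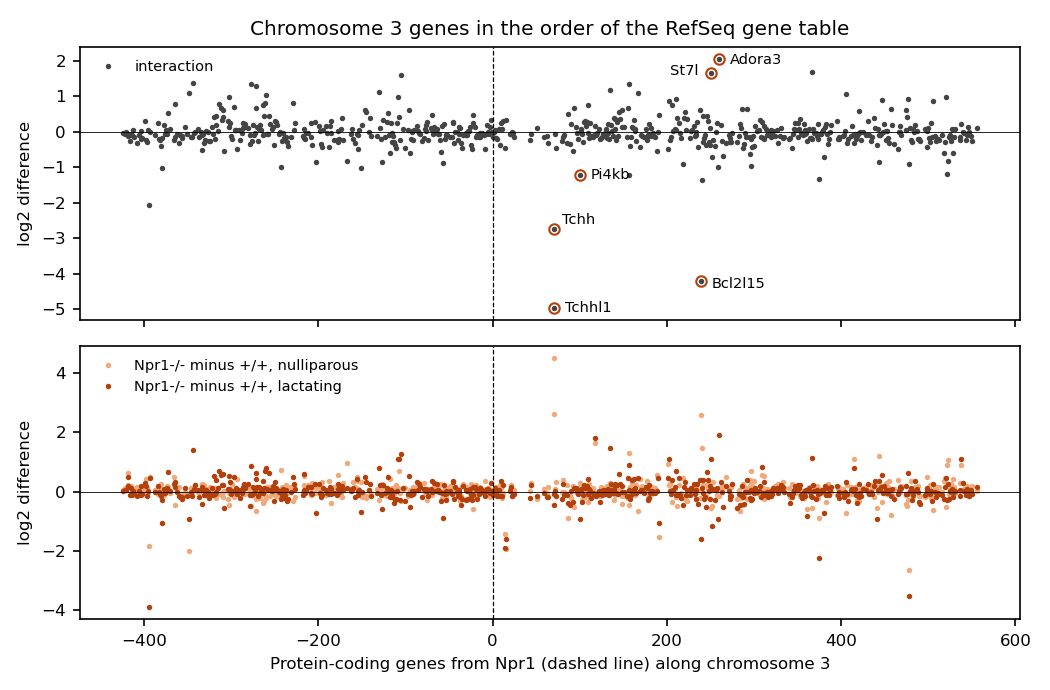
Top, interaction (log2) of each tested protein-coding gene of chromosome 3 against its position in gene order from Npr1 (dashed line), with the 6 called genes circled. Bottom, Npr1-/- minus Npr1+/+ (log2) of the same genes in nulliparous and lactating mice. The 6 called genes lie between positions 70 and 260 on one side of Npr1.

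Several fat cell genes were lower in the lactating knockout. Of an adipocyte list of 12 genes, 9 were tested, because leptin (Lep) and the brown fat uncoupling protein Ucp1 were well above background on no array and the adipocyte adrenergic receptor Adrb3 on few. The median interaction of the 9 was -1.91, against -0.06 over all genes, and 8 lay below 0. The median was -0.88 with normexp and -0.49 over the members well above background on all 16 arrays. Cidec was called, and 5 including it had an unadjusted p under 0.05, all lower (4.37% of all genes tested). Between genotypes limma called 2 of the 9 as lower in nulliparous knockout mice (0.0284% of all genes) and 6 in lactating knockout mice (0.135%). In bulk tissue fewer cells of a type and less RNA per cell cannot be told apart.

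Adiponectin, Adipoq, a hormone secreted by fat cells, read -1.89, -2.13, -2.56 and -2.0 in nulliparous and -1.23, -1.03, -1.33 and -0.39 in lactating wild-type mice. Knockout levels were -4.02, -3.91, -4.68 and -3.09 before and -5.30, -4.43, -3.92 and -5.07 during lactation, and all but 2 of these 8 arrays were at background. Wild-type groups did not overlap and knockout groups did. The interaction was -1.91 ± 0.48 (limma adjusted p = 0.341). In lactating mice the Adipoq difference between knockout and wild-type was -3.69 (limma adjusted p = 6.43e-05), a size that rests on levels at background on 3 of the 4 knockout arrays.

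Adipsin, Cfd, the complement factor D of fat cells, gave 1.51, 1.30, 1.35 and 2.18 in nulliparous and 2.12, 2.98, 1.41 and 2.90 in lactating wild-type mice. The knockout gave -0.75, -0.97, -0.89 and 0.39, then -1.67, -1.80, -1.86 and -2.10. Its genotypes did not overlap in either state, the difference in lactation was 18.6-fold (limma adjusted p = 2.75e-05), and the interaction was -2.07 ± 0.49 (limma adjusted p = 0.297). Carbonic anhydrase 3, Car3, abundant in fat and skeletal muscle, had an interaction of -2.05 ± 0.49 and resistin, Retn, a further secreted fat cell protein, of -2.89 ± 0.68, both with a limma adjusted p of 0.297. Car3 was well above background on 2 of 4 lactating knockout arrays, and Retn on 2 nulliparous and 3 lactating knockout arrays. Both sizes thus rest partly on undetected readings, and with normexp they were -0.93 and -1.67. Resistin rose 5.45-fold in lactating wild-type mice (limma adjusted p = 0.000993) and differed by -0.44 ± 0.48 in the knockout. With normexp background correction limma called Adipoq and Retn for the interaction and no longer called Cidec.

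The lipid droplet coat genes Plin1 (-0.69 ± 0.53) and Plin4 (-0.65 ± 0.39) and the fatty acid carrier Fabp4 (-0.33 ± 0.19) had smaller values, and Cidea, a lipid droplet gene that heart muscle also expresses, had 0.02 ± 0.15. The summed level of the list was 8.35 to 8.92 in nulliparous and 8.11 to 8.75 in lactating wild-type mice, which overlapped, and 8.53 to 8.99 and 8.15 to 8.41 in the knockout, which did not. The genotypes overlapped in both states. That sum is dominated by Fabp4 and Plin4, which heart tissue also expresses. The number of members well above background on all 4 arrays was 9 in each wild-type group, 5 in nulliparous knockout and 4 in lactating knockout mice. The list's median was -1.76 on slide 1, -2.03 on slide 2 and -1.63 without nulliparous knockout replicate 4. How much fat was dissected with each ventricle is not given, and its part in these values was not tested.

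**Figure D4:**
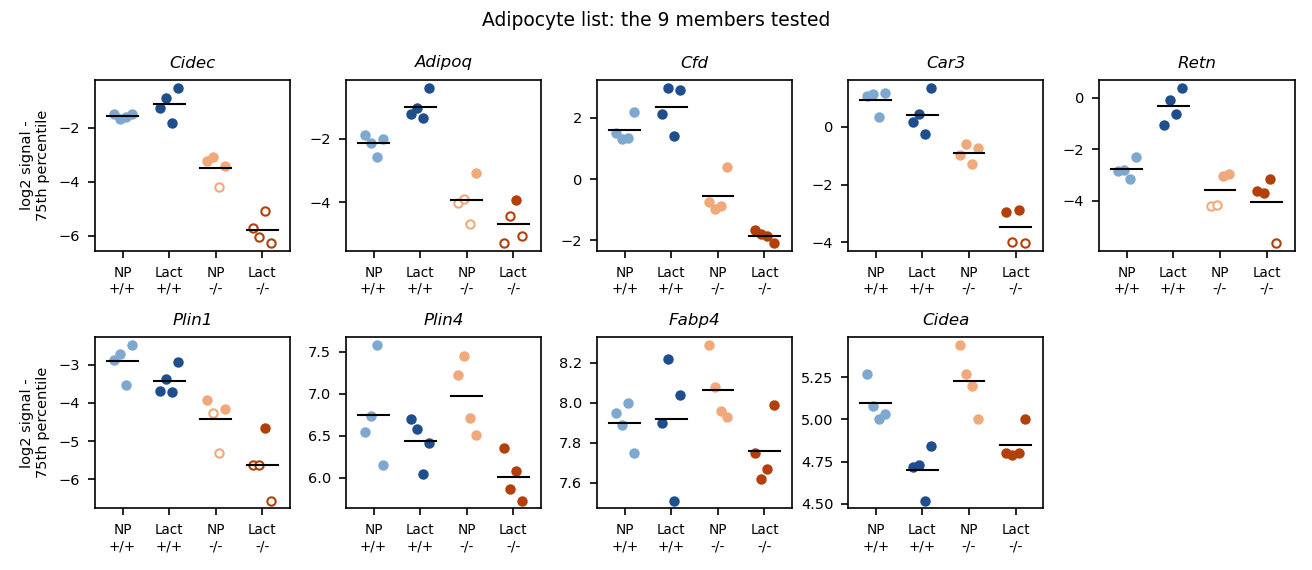
Levels (log2 signal relative to the 75th percentile of each array) of the 9 tested adipocyte genes on every array, by group as labelled (NP, nulliparous; Lact, lactating). Each point is 1 mouse, lines are group means, and open points were not well above background. Cidec, Adipoq, Cfd, Car3, Retn and Plin1 are lower in lactating Npr1-/- mice than in lactating Npr1+/+ mice with no overlap. Plin4, Fabp4 and Cidea overlap.

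No marker of hypertrophy, fibrosis or metabolism among 14 examined was called for the interaction. B-type natriuretic peptide, Nppb, rose 13.3-fold in the wild-type and 6.62-fold in the knockout. Its levels were 4.12, 4.76, 2.61 and 3.79 and then 7.28, 7.78, 8.01 and 7.17 in the wild-type, and 4.61, 4.20, 5.39 and 5.08 and then 7.61, 8.0, 7.01 and 7.59 in the knockout. Lactating mice of both genotypes overlapped and exceeded all nulliparous mice. The interaction of -1.01 had a 95% interval of -2.18 to 0.15 and changed sign between slides (0.30 and -2.33). Atrial natriuretic peptide, Nppa, rose 2.34-fold and 2.02-fold, with an interaction of -0.21 (interval -1.24 to 0.82).

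Skeletal alpha actin, Acta1, a fetal gene re-expressed in hypertrophy, rose 7.92-fold in the wild-type and 11.1-fold in the knockout, and its interaction of 0.48 had an interval of -0.80 to 1.76. The intervals also held 0 for the myosin heavy chains Myh6 (-0.24, -0.63 to 0.14) and Myh7 (0.94, -0.97 to 2.85) and for the stretch-responsive Ankrd1 (0.10, -0.73 to 0.93). The matrix genes Col1a1 (0.21, -0.52 to 0.93), Col3a1 (0.20, -0.89 to 1.30), Postn (0.82, -0.03 to 1.66) and Timp1 (0.24, -0.59 to 1.08) did likewise. So did the mineralocorticoid receptor Nr3c2 (0.87, -0.02 to 1.75) and Angptl4 (-0.81, -2.02 to 0.40), which inhibits lipoprotein lipase. These intervals do not exclude differences of up to 1 log2 unit or more for most of these genes.

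Ccn2, connective tissue growth factor, came nearest among the markers. Its levels were 4.59, 4.68, 4.94 and 3.99 and then 6.64, 6.57, 6.39 and 6.24 in the wild-type, and 5.07, 4.99, 5.0 and 5.43 and then 6.08, 5.77, 5.22 and 5.60 in the knockout. Lactating wild-type mice were above all others, a 3.75-fold rise, and the knockout rose 1.46-fold. The interaction was -1.36 with an interval of -1.97 to -0.75 (limma adjusted p = 0.198), and limma called it with array weights. Pdk4, which turns pyruvate away from oxidation, fell 4.41-fold in the knockout (limma adjusted p = 0.00264) and differed by -0.47 ± 0.46 in the wild-type, with an interaction of -1.67 ± 0.65 (limma adjusted p = 0.702).

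The pathway of the receptor itself showed no called interaction. Of 21 genes of natriuretic peptide and cyclic GMP signalling 18 were tested, 12 lay below 0, and the median was -0.07. The clearance receptor Npr3, which removes the peptides, had an interaction of -0.02 ± 0.26, and C-type natriuretic peptide, Nppc, was at background on every array. Gucy1a1, a subunit of the nitric oxide-sensitive guanylyl cyclase, was the 1 member with an unadjusted p under 0.05 (0.38 ± 0.12, limma adjusted p = 0.647). It read 2.14, 1.92, 1.84 and 1.93 and then 1.31, 1.56, 1.32 and 1.40 in the wild-type, and 1.84, 1.80, 1.75 and 1.98 and then 1.68, 1.53, 1.70 and 1.74 in the knockout, so that wild-type groups were further apart. Among 14 tested genes of the renin-angiotensin, aldosterone and endothelin systems the median was -0.01, with Ednra, the endothelin A receptor, at -0.68 ± 0.20, angiotensinogen, Agt, at -0.45 ± 0.17 and the angiotensin-cleaving peptidase Enpep at 1.05 ± 0.45, none of them called.

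Several metabolic and hormone-responsive lists leaned towards negative values, and others did not. Prolactin, oxytocin and oestrogen signalling had a median of 0.0036 with 10 of 22 tested genes below 0. Cholesterol and lipid synthesis had a median of 0.018 with 13 of 27 below 0. Of 20 glucocorticoid-responsive genes 19 lay below 0 (61.1% of all genes did), with a median of -0.66, and 6 had an unadjusted p under 0.05, all lower, while none was called. The list's median response was 0.39 in the wild-type and -0.33 in the knockout. Ptgds, which makes prostaglandin D2, read 6.58, 7.05, 7.92 and 7.28 and then 9.65, 9.57, 9.31 and 9.03 in the wild-type. The knockout read 8.29, 8.87, 7.71 and 8.01 and then 9.29, 9.44, 8.89 and 9.17, so nulliparous groups overlapped in part and both genotypes rose. Its interaction was -1.20 ± 0.38 (limma adjusted p = 0.629). The stress kinase gene Map3k6 (-1.54 ± 0.52), the mTORC1 inhibitor Ddit4 (-1.38 ± 0.60), the cell cycle inhibitor Cdkn1a (-1.86 ± 0.83) and the growth factor receptor inhibitor Errfi1 (-0.91 ± 0.38) made up the 6 with Pdk4. This list's median was -1.35 on slide 1 and -0.03 on slide 2, and -0.17 on slide 2 without nulliparous knockout replicate 4 (-0.05 over all genes).

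All 25 genes of fatty acid uptake and oxidation lay below 0, with a median of -0.26, and all 30 genes of oxidative phosphorylation, with a median of -0.24. None was called, and 4 and 8 of them had an unadjusted p under 0.05, all lower (4.37% of all genes). On slide 2 the fatty acid median was -0.12, and -0.04 without nulliparous knockout replicate 4. Oxidative phosphorylation genes had a median response of 0.05 in the wild-type and -0.12 in the knockout, and fatty acid genes 0.10 and -0.19. Quantile normalization moved the median of all genes from -0.06 to -0.01 and those of the lists to -0.18 for fatty acid oxidation and -0.07 for oxidative phosphorylation. Of 23 PPAR-responsive genes 21 lay below 0, with a median of -0.29, and Cidec was the 1 called. The acyl-CoA synthetase Acsl1 (-0.29 ± 0.11) and the lipid droplet gene Plin2 (-0.51 ± 0.20) were among the 6 with an unadjusted p under 0.05. The PPAR median was -0.62 on slide 1, -0.04 on slide 2 and 0.06 on slide 2 without nulliparous knockout replicate 4, so the lean was not seen on slide 2. Of 17 tested smooth muscle contractile genes 14 lay below 0, with a median of -0.22, and Actg2 was the 1 called.

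The interferon, MHC class II and chemokine lists leaned the other way. A list of the IL-6 family, cytokines and acute phase did not, with 15 of 20 tested genes below 0 and a median of -0.21. Of 27 interferon-response genes 24 lay above 0, with a median of 0.35, and 5 had an unadjusted p under 0.05, all higher (2% of all genes). None was called. Iigp1, an interferon-induced GTPase, fell in the wild-type from 2.55, 2.18, 2.10 and 2.48 to 0.75, 1.45, 0.62 and 1.32 (limma adjusted p = 0.000119). In the knockout it read 1.71, 1.91, 1.97 and 1.67 and then 1.63, 1.23, 1.59 and 1.48, the latter group lower without overlap but with limma adjusted p = 0.137. Its interaction was 0.96 ± 0.25 (limma adjusted p = 0.386). The antiviral genes Oas2 (0.96 ± 0.41), Ifit3 (0.59 ± 0.26) and Ifi44 (0.98 ± 0.41) were also among them. The list's median was 1.01 on slide 1 and -0.22 on slide 2, so its direction did not hold on both slides.

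Of 9 tested genes of MHC class II antigen presentation 7 lay above 0, with a median of 0.45, 0.91 on slide 1 and 0.34 on slide 2. H2-DMb1, which helps load peptides, had an interaction of 1.21 ± 0.40 and the invariant chain Cd74 of 0.81 ± 0.34 (limma adjusted p = 0.647 and 0.717). Of 20 chemokine genes and receptors 14 lay above 0, with a median of 0.30, and the monocyte attractants Ccl8 (1.23 ± 0.48) and Ccl12 (1.50 ± 0.70) had an unadjusted p under 0.05. Ccl12 read 0.12, 0.21, 0.15 and 0.61 in lactating knockout mice, above every other array, where the range was -2.69 to -0.24. The chemokine median was 0.87 on slide 1 and -0.23 on slide 2. Macrophage markers moved with these lists. Their summed level was 6.39 to 6.70 in lactating knockout mice and 6.17 to 6.40 in lactating wild-type mice, against 5.31 to 5.55 and 5.12 to 6.05 in nulliparous wild-type and knockout mice, and limma called 15 of 18 tested markers as rising in the knockout (25.5% of all genes) and 13 in the wild-type (31.8%). In each nulliparous group 1 of 19 markers was at background on all 4 arrays, and in the lactating groups 0. Their part in the immune lists was not tested. The macrophage list's median interaction was 0.13, 0.42 without nulliparous knockout replicate 4, 0.63 on slide 1 and -0.45 on slide 2.

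**Figure D5:**
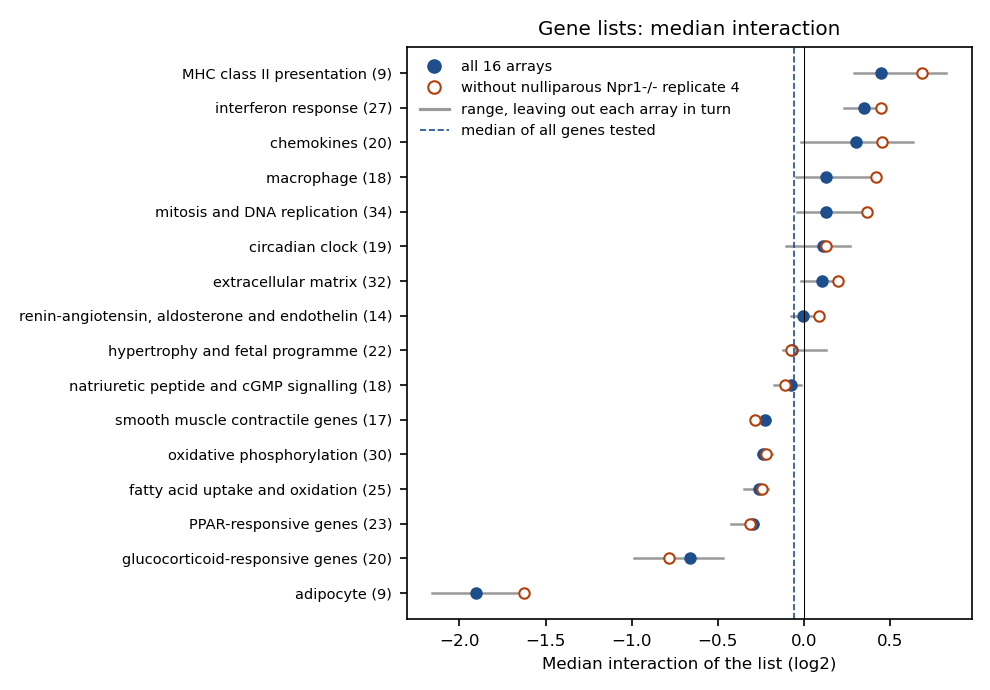
Median interaction (log2, x axis) of the tested members of 16 gene lists (number tested in brackets) with all 16 arrays (filled), without nulliparous Npr1-/- replicate 4 (open) and as a range over fits without each array in turn (lines). The dashed line is the median of all genes, -0.06, and the adipocyte list lies lowest at -1.91.

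The genes just outside the threshold had the following values, with no call. Gsdmc, a pore-forming gasdermin, had an interaction of -0.81 ± 0.15 and the mitochondrial chaperonin cofactor Hspe1 of -1.06 ± 0.20 (limma adjusted p = 0.0851 for both). Hspe1 read 4.82, 4.76, 4.65 and 4.81 and then 6.57, 6.45, 6.05 and 6.43 in the wild-type, and 4.93, 4.94, 4.98 and 5.59 and then 5.63, 5.72, 5.67 and 5.65 in the knockout. It rose 3.06-fold and 1.47-fold, the groups overlapped in neither genotype, and its 2 other probes gave -1.17 and -0.60. Without nulliparous knockout replicate 4, its highest nulliparous array, limma called it (adjusted p = 0.0317). The protocadherin Pcdhb17 had -1.03 ± 0.20 (limma adjusted p = 0.0872), and without the same array it was called too (adjusted p = 0.0465).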

How the data were processed

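Ventricular RNA of 16 female mice, 4 per group, was measured on one-colour arrays of 62976 spots. Per the file headers, the authors extracted spots with Agilent Feature Extraction (10.7.3.1 in the submitters' processing notes), and the deposited processed signals are linear intensities corrected for background within each array. The authors' deposited log2 table matched (r = 1) log2 processed signals set against the 75th percentile and the nulliparous wild-type mean, over 24442 probes bright on all arrays. The median difference per array was -0.026 to 0.0187 and the column medians -0.382 to 0.0318, so scale, centring and direction are known. It served as an alternative.

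Here, 59305 non-control spots were averaged into 55681 probes after leaving out outlier flags, and log2 signals were set against each array's 75th percentile. The RefSeq reference (GRCm38.p6) named 27793 of 28167 probes with a RefSeq accession (28026 probes had 1 symbol by any route and the rest none), giving 21154 genes, 5681 with several probes, of which the brightest was used. Genes well above background on all 4 arrays of a group were tested (14060, of which 12704 were so on all 16 arrays). No probe was saturated, and 91 flagged values in 90 genes were dropped, none in a gene named here. The fit had 4 group means (limma 3.58.1, R 4.3.3, jsonlite 2.0.0) and was tested on simulated data. Figures used matplotlib 3.10.9.

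Named genes were Npr1, 14 markers, the 12 called genes with the highest and the 12 with the lowest interaction, the 12 with the smallest p and up to 4 called members per list, leaving out placeholder symbols. Members of lists and near misses without a call, and Gm3448, were named after their values were seen. Members, the 31 pathway lists, the 14 cell type lists and the rule were chosen with earlier results of these data known. The 16 lists given in full were picked after the values were seen. Alternatives were normexp (offset 50, on the median spot signal in place of the planned mean spot signal), quantile normalization, median centring, filters, mean of probes, trended variance, array weights, replicate and slide blocks, each slide, the deposited log2 table and fits without each array in turn. The number of arrays limits the precision. In the main fit, p-values set a difference against the spread of arrays within groups, which holds differences between mice and between slides.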

Additional observations from a re-analysis of the deposited data

Results flagged for a closer look

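The 13 called interactions are the results in which the lactation response differed between genotypes by a test of the difference itself (limma adjusted p under 0.05). They were -4.96 for Tchhl1, -4.21 for Bcl2l15, -3.96 for Plaat1, -2.84 for Pck1, -2.75 for Cidec, -2.72 for Tchh, -2.26 for Crispld1, -1.54 for Gm3448, -1.22 for Pi4kb and -1.04 for Actg2, and 2.03 for Adora3, 1.65 for St7l and 1.07 for Cdc23.

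Probes without a gene name lay outside the gene-level fit. In a fit of all 28947 probes that passed the filter, 20 were called and 5 of these had no name, out of 10474 such probes. The array's annotation places 4 of them in 1 forward-strand interval of chromosome 3 (mm9, chr3:96074625-96086375). Their interactions were -4.55, -5.67, -3.17 and -2.88. The fifth, given by an Ensembl transcript, had -5.34. With the undetected group at the dimmest detected signal of each array, the responses differed at least 11.2-fold, 10.6-fold, 3.08-fold, 4.6-fold and 10.9-fold in that order. All 5 were at background on the 4 nulliparous wild-type arrays and well above background on the other 12, the arrangement seen for Tchh, Tchhl1 and Crispld1. The same fit called other probes of Cyp2e1 (-2.78) and Ankrd40 (-1.40).

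In 12 of 240 sets of 4 arrays (a gene in a group) 1 array lay far from the other 3, and chance flags about 1 set in 20. Nulliparous knockout mice had 3: Acta1 at 3.03 in replicate 1 (others 4.73 to 4.99), and Cfd at 0.39 (others -0.97 to -0.75) and Hspe1 at 5.59 (others 4.93 to 4.98) in replicate 4. In nulliparous wild-type replicate 3, Bcl2l15 was at -2.73 (others -4.42 to -4.36) and Car3 at 0.33 (others 1.08 to 1.17). Lactating wild-type replicate 1 had Pi4kb at 0.50 (others 0.41 to 0.42) and Npr3 at 0.54 (the others at -0.18). In lactating knockout mice Pi4kb was at -0.56 (others -0.49 to -0.48) and Ifi44 at 0.55 (others -0.03 to -0.01) in replicate 2, Angptl4 at 2.68 (others 0.99 to 1.26) in replicate 3, and Col3a1 at 5.55 (others 5.07 to 5.09) and Cidea at 5.0 (others 4.79 to 4.80) in replicate 4.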

How the results depend on the processing

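None of the 13 called interactions changed sign under any alternative run. The count was 13 in 4 of them (quantile normalization, median centring, trended and robust variance, and the authors' table), 12 with slide as a block, 11 with the mean of probes and 10 without a filter. Normexp also gave 10, 7 of them shared with the 13 and 1 higher, and lost Adora3, Cdc23, Cidec, Tchh, Crispld1 and Gm3448. Requiring all 16 arrays above background gave 6 (3 higher and 3 lower), since genes at background in 1 group leave the test. Array weights gave 70 (25 higher and 45 lower, all 13 included), and the cause was not tested. Slide 1 alone, with 8 arrays, gave 6 (4 lower), of which 4 were among the 13. Slide 2 alone, with 8 arrays, gave 1 (0 higher, 1 lower), which was not among the 13. Slide 2 without nulliparous knockout replicate 4, added after seeing the data, gave 0 in limma, with 986 genes at an unadjusted p under 0.05, and rests on 1 nulliparous knockout array assumed to vary like the others. Leaving out 1 array gave 10 to 20 called, 3 to 5 higher and 6 to 15 lower. Calls were lost in such fits for Bcl2l15 (12 of 16), Pck1 and Gm3448 (10 each), Crispld1 (2) and Cidec (1).

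Deviations of mice with the same replicate number correlated weakly, from -0.139 to 0.176, with 8 of 24 pairs over 0.1. The median was 0.030, and -0.010 for mice with different numbers. These values cannot show whether the numbers pair the mice. The fit with a replicate block called 9 (2 higher, 7 lower), all among the 13, and lost Adora3, Cidec, Bcl2l15 and Pck1. The number is also the slide, and a slide block lost Bcl2l15 and Pck1.

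Signs turned for uncalled genes, and the cause was not tested. On slide 2 alone the interaction was 0.14 for Nppa, -0.14 for Acta1, -0.24 for Ankrd1, -0.30 for Col1a1, -0.58 for Col3a1, -0.050 for Timp1, 0.39 for Angptl4, -0.028 for Ifi44 and 0.072 for Npr3, and on slide 1 alone 0.30 for Nppb and -0.11 for Cidea. Slide 2 without that array gave -0.066 for Acta1, -0.35 for Col1a1, -0.77 for Col3a1, -0.33 for Timp1, 0.0081 for Plin1, -0.20 for Ifi44, -0.055 for Ifit3 and -0.063 for Cd74. The Cidea interaction turned to -0.070 with array weights and -0.00296 in the authors' table, and Npr3 to 0.012 with normexp and 0.0048 with array weights. Fits without 1 array ranged from -0.48 to 0.076 for Nppa, -0.12 to 0.27 for Ankrd1, -0.11 to 0.51 for Col3a1, -0.060 to 0.089 for Cidea and -0.17 to 0.16 for Npr3.

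With 4 mice per group a gene of median precision has an unadjusted 95% interval of 0.424 log2 units either way. Calls ask for more, and the called interaction of smallest size was -1.04, for Actg2. Differences between the responses above 0.424 log2 units could therefore go uncalled. Folds against groups at background are bounds, except for Cidec and Pck1, where nulliparous knockout mice were partly at background too.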

Other observations

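Among the cell types whose markers were examined, no list other than the adipocyte list held a gene called for the interaction. The median interaction was -0.18 over 13 ventricular cardiomyocyte markers, 0.12 over 13 fibroblast markers, 0.04 over 15 endothelial markers and -0.09 over 11 markers of smooth muscle and pericytes, beside -0.06 over all genes. The 6 tested mesothelial and epicardial markers had a median of -0.48 and all lay below 0, and the 9 tested markers of erythroid cells and platelets had 0.32 with 1 below 0.

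Of 34 tested genes of mitosis and DNA replication, limma called 23 as rising with lactation in the wild-type (31.8% of all genes) and 26 in the knockout (25.5%). Their interactions had a median interaction of 0.12 (0.37 without nulliparous knockout replicate 4, 0.54 on slide 1 and -0.26 on slide 2). Circadian clock genes had 0.11 over 19 tested, and 30 cytosolic ribosomal protein genes had -0.12, with 27 below 0.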
